A study of Homo sapiens with 12 samples.

Results

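The genes LRRC15, CXCL14, CRYGS, C15orf54 and SHC2 are described here in A375 cells, an established human melanoma line that grows on a mutant BRAF kinase. They are 5 of the 44659 genes in the count table and were chosen by symbol, because their read counts were near 0 or low in control cells and higher under inhibitors of the MAPK pathway or during recovery. Levels against control cells are therefore what chose them and are given below without a test. The 5 genes all passed the filter on low counts that left 15916 tested genes.

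RNA was measured in 12 libraries, 3 for each of 4 groups. Control cells (CC) were kept in DMSO, the solvent, for 72 h. Treated cells (TC) were kept for 72 h with the BRAF inhibitor vemurafenib and the MEK inhibitor cobimetinib, each at 500 nM. Persister cells (PC) had the same treatment followed by 2 days without drug, and recovered cells (RC) had it followed by 9 days without drug. CC and TC were harvested on the same day, PC and RC each came from a batch of plates of their own, passed when needed, and no DMSO library of a later day was used here, so that group and harvest cannot be told apart for PC and RC. The labels do not say that replicates were separate cultures, so p-values measure only the spread between these libraries, which may be technical. The RNA was cytoplasmic and depleted of ribosomal RNA. Against CC, 67.9% of tested genes passed the edgeR test in TC, 69.1% in PC and 37.3% in RC, and for the 5 genes no test is given in those comparisons. Libraries held between 37773389 and 55567097 counted reads. Of 11 melanoma and melanocyte markers, 10 were above the floor of 3 counts in each group, with PRAME near 0. SPRY4 and DUSP6, feedback genes that ERK activity keeps on, checked the action of the drugs: against CC, SPRY4 fell by 8.06 and DUSP6 fell by 5.32 on the log2 scale in TC. The CC libraries themselves differed widely in these genes. In library-scaled counts (CPM) the CC means were 443.9 ± 241.5 for SPRY4 and 156.3 ± 122.1 for DUSP6 (SD, n = 3). Both were still low in PC, 2 days after drug removal, at -9.10 and -4.90 against CC (SE 0.42 and 0.48). In RC the differences from CC were -0.76 and -0.22 (SE 0.27 and 0.39).

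In melanoma cells with mutant BRAF, the kinases BRAF, MEK and ERK pass on a growth signal that keeps cells dividing, and blocking them shifts surviving cells to another expression state that can reverse when drug is removed. LRRC15 encodes a membrane protein with leucine-rich repeats that is best known from activated fibroblasts of tumour stroma and responds to TGF-beta. CXCL14 encodes a secreted chemokine of skin and other epithelia, CRYGS a structural crystallin of the eye lens, and SHC2 an adaptor that couples receptor tyrosine kinases to GRB2 and RAS. C15orf54 is listed in RefSeq as the long non-coding RNA LINC02915.

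On the reference (RefSeq, GRCh38.p14), LRRC15 lies at chr3:194355249-194369743 and CRYGS at chr3:186538443-186544380, both on the minus strand. CXCL14 lies at chr5:135570679-135578991 and SHC2 at chr19:416589-461033, also on the minus strand. C15orf54 lies at chr15:39250669-39254845 on the plus strand and is overlapped by the antisense gene LOC105370777, and since strand-specific counting was not stated, reads of this pair may not have been told apart.

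The 250 bases before the annotated start of LRRC15, CXCL14 and CRYGS are shown because these were the genes at or near 0 in CC and each holds at least 1 match to TGANTCA, the letters bound by AP-1, the FOS and JUN dimers whose genes respond to ERK. They are from RefSeq (GRCh38.p14), read 5′ to 3′ on the minus strand at chr3:194369744-194369993, chr5:135578992-135579241 and chr3:186544381-186544630, and capitals mark the matches.
LRRC15: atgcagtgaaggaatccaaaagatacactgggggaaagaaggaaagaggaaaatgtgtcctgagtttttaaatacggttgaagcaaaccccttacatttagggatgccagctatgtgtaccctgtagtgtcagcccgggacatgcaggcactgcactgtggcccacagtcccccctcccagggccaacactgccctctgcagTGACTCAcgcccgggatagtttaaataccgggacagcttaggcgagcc
CXCL14: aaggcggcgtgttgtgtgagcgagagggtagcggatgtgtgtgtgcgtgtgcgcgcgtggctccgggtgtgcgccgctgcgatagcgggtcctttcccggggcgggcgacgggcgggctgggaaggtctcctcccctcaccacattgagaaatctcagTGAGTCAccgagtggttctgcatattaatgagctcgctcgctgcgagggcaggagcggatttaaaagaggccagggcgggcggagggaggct
CRYGS: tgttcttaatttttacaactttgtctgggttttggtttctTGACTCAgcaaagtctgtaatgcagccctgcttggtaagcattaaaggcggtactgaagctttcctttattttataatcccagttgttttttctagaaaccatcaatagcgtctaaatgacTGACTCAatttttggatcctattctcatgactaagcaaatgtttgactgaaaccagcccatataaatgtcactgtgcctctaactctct

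The match stood at bases -48 to -42 from the start in LRRC15 and -92 to -86 in CXCL14. CRYGS held 2 matches, at -210 to -204 and -89 to -83, and its promoter also held TATAAA. The letters TGANTCA were searched on both strands from 250 bases before to 50 bases after the start. Of 35116 RefSeq promoters 7.71% held at least 1 match and 0.515% held 2 or more. C15orf54 and SHC2 held none in this window. Of 7 further motifs searched in the same way, TATAAA was in 11.5% of promoters and in 1 of the 5 genes (CRYGS). ACAAAG (SOX, 16.1% of promoters) and GGAATG (TEAD, 14%) were each in CRYGS and C15orf54. TGACGTCA (CRE, 1.85%), CCAAT (34.6%), TGTTTAC (FOXO, 3.42%) and CATGTG (M-box, 11.1%) were in 0 of the 5. These are descriptions of letters, and binding was not measured.

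LRRC15 was nearly silent in CC, high in TC and highest in PC. In CC it had 0, 5 and 8 reads, which is 0, 0.113 and 0.169 CPM, the unit of library-scaled counts used for all levels here. In TC its level was 63.8, 105 and 169 CPM, and in PC 466, 548 and 589 CPM. The lowest PC library lay above the highest TC library, and every TC library lay far above every CC library. The mean was 112.5 ± 52.8 CPM (SD, n = 3) in TC and 534 ± 62.6 CPM in PC, which was 1196-fold and 5678-fold the CC mean of 0.0941 ± 0.0862 CPM. After 9 days without drug the level was 1.60, 1.32 and 0.983 CPM in RC (65, 74 and 52 reads). RC was thus 410.8-fold below PC but still 13.8-fold above CC, with no overlap, though the CC mean rests on 13 reads. Without CC replicate 1, which had 0 reads, the difference of mean log2 CPM from CC was 9.15 in place of 9.83 in TC, 11.50 in place of 12.18 in PC and 2.85 in place of 3.53 in RC. In bulk RNA, fewer cells that express a gene and less RNA per cell cannot be told apart.

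CXCL14 had 0 reads in all 3 CC libraries and in all 3 RC libraries, and was present in each TC and PC library. In TC the level was 8.06, 32.6 and 132 CPM (311, 1275 and 7100 reads), and in PC 11.2, 22.4 and 32.5 CPM. TC and PC overlapped, since TC replicate 1 lay below every PC library and TC replicate 3 above. TC replicate 2, at 32.58 CPM, lay just above the highest PC library, at 32.49 CPM. Against a floor of 3 counts per library, the TC mean of 57.7 ± 65.9 CPM exceeded CC at least 843-fold, and the PC mean of 22.01 ± 10.7 CPM did so at least 322-fold. The TC value depends on the library, since the difference of mean log2 CPM between TC and CC was 9.53 with all libraries, 8.49 without TC replicate 3 and 10.55 without TC replicate 1.

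CRYGS went from 1, 2 and 1 reads in CC to 56.8, 103.7 and 157.3 CPM in TC and 242.5, 280.5 and 283.7 CPM in PC. The PC libraries all lay above the TC libraries and were close to one another. The mean was 105.9 ± 50.3 CPM in TC, or at least 1548-fold above CC, and 268.9 ± 22.9 CPM in PC, or at least 3930-fold above it. In RC, CRYGS had 2, 4 and 9 reads, 2776-fold below PC on the mean of 0.0969 ± 0.0644 CPM. Each RC library lay above each CC library, though by a few reads, and the RC mean was at least 1.42-fold higher than CC at the floor.

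C15orf54 was low but not off in CC and did not return. Its level was 1.11, 1.88 and 2.01 CPM in CC, 5.60, 7.05 and 7.797 CPM in TC, and 16.4, 17.7 and 19.4 CPM in PC. In RC it was 19.5, 18.05 and 18.95 CPM, within the range of PC but for 1 library just above it. Against the CC mean of 1.67 ± 0.485 CPM, TC was 4.09-fold, PC 10.7-fold and RC 11.3-fold higher, and CC, TC and PC did not overlap.

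SHC2 was also expressed in CC, at 9.55, 6.01 and 8.61 CPM, and was highest in TC, at 41.1, 38.1 and 33.7 CPM. PC held 30.5, 27.9 and 25.2 CPM, all above CC and below TC. In RC the level was 0.862, 0.872 and 0.870 CPM (35, 49 and 46 reads), below every CC library. The means were 8.06 ± 1.84 CPM in CC, 37.7 ± 3.71 CPM in TC, 27.9 ± 2.68 CPM in PC and 0.868 ± 0.00552 CPM in RC, so that TC was 4.68-fold above CC and CC 9.28-fold above RC. The name "switched on" therefore fits LRRC15, CXCL14 and CRYGS, whereas C15orf54 and SHC2 were already measurable in CC.

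**Figure D1:**
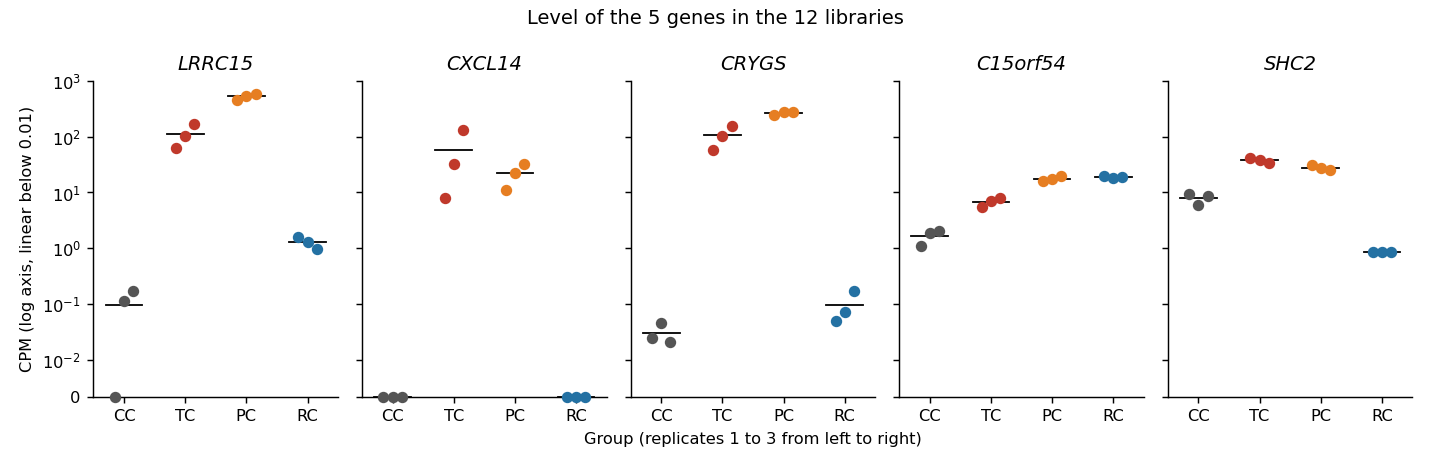
CPM of LRRC15, CXCL14, CRYGS, C15orf54 and SHC2 in each of the 12 libraries on a log axis that is linear below 0.01 CPM, with points for libraries and lines for group means (n = 3 per group). LRRC15 and CRYGS are highest in PC, C15orf54 stays high in RC, and SHC2 in RC lies below CC.

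The 5 genes had 3 kinds of course. LRRC15, CRYGS and CXCL14 came on in TC and PC and were back at or near 0 in RC. C15orf54 was ordered CC, TC and then PC and RC, and the last pair could not be set apart. SHC2 was ordered RC, CC, PC and TC, with no overlap between neighbours in that order. The choice of genes drew on all 12 libraries, so no contrast is fully independent of it. RC with PC is given as a description without a p, since genes chosen as high under drug are favoured to be lower in RC, and LRRC15, CXCL14 and CRYGS passed the filter on low counts through TC and PC alone. PC with TC sets a pair of groups on the high side against each other, and it was tested in edgeR across all 15916 genes, with the limit that the genes were picked with both groups in view.

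In the first 2 days after drug removal, LRRC15, CRYGS and C15orf54 rose further and SHC2 fell, so 4 of the 5 genes passed the test. Over all tested genes 24.7% did (12.2% higher and 12.5% lower), and because the 5 were selected nothing is read from that difference in shares. LRRC15 rose by 2.25 on the log2 scale between TC and PC (SE 0.28, edgeR adjusted p = 0.00015), which is 4.75-fold on the means. CRYGS rose by 1.34 (SE 0.26, adjusted p = 0.00283) and C15orf54 by 1.38 (SE 0.18, adjusted p = 0.000179). SHC2 fell by 0.43 (SE 0.14, adjusted p = 0.0432), a call that was lost with library totals in place of TMM factors (adjusted p = 0.0611) and when any 1 of the PC or RC libraries, TC replicate 1 or TC replicate 2 was left out (adjusted p from 0.0515 to 0.153). For CXCL14 the difference was -1.39 (SE 0.85, adjusted p = 0.288), with a 95% interval from -3.36 to 0.58. Without TC replicate 3 it was 0.12 (adjusted p = 0.921), so this 1 library set its sign.

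Between 2 and 9 days without drug, LRRC15, CXCL14, CRYGS and SHC2 came to lie lower, with no overlap between PC and RC, whereas PC and RC overlapped for C15orf54. Over all tested genes 34.2% were lower and 35.7% higher in RC than in PC (69.8% in either direction), and nothing about the 5 genes is read from these shares. The fitted log2 difference was -8.70 (SE 0.40) for LRRC15, -11.35 (SE 0.49) for CRYGS and -5.00 (SE 0.18) for SHC2. CXCL14 was at least 358.9-fold lower in RC than in PC. For C15orf54 the difference was 0.08 (SE 0.17), with a 95% interval from -0.30 to 0.46.

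**Figure D2:**
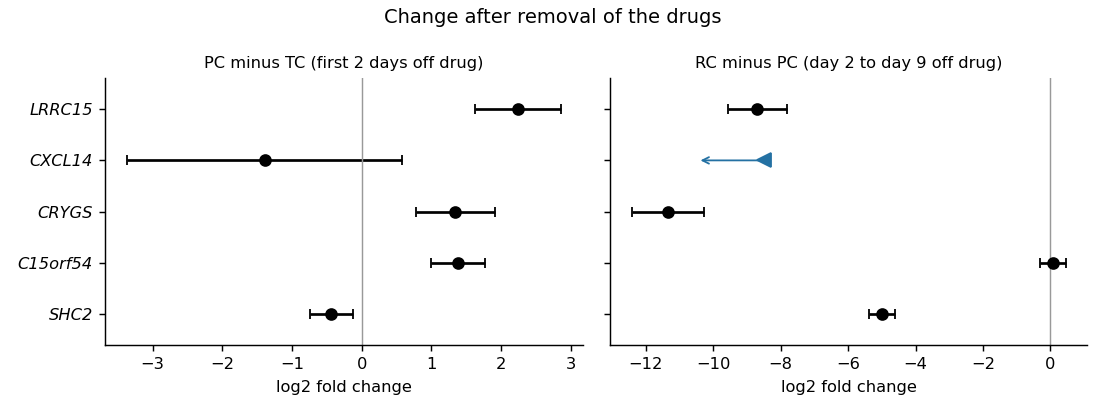
Log2 fold change of each gene for PC minus TC and RC minus PC, with bars for the 95% interval of the fit and an arrow for a bound where RC had 0 reads. LRRC15, CRYGS and C15orf54 lie above 0 and SHC2 below 0 for PC minus TC. RC minus PC is a description without a test, in which LRRC15, CRYGS and SHC2 lie below 0, CXCL14 has a bound and no interval, and C15orf54 lies near 0.

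The TC libraries differed widely in LRRC15, CXCL14 and CRYGS. LRRC15, CXCL14, CRYGS and C15orf54 were each highest in TC replicate 3 and lowest in TC replicate 1, and SHC2 had the opposite order. The level in TC replicate 3 was 2.64 times that in replicate 1 for LRRC15, and 2.25% of tested genes had a ratio as high. The ratio was 16.4 for CXCL14 (0.466% of genes as high), 2.77 for CRYGS (2.12%), 1.39 for C15orf54 (9.69%) and 0.821 for SHC2 (81.8%). Over all tested genes its median was 0.999, and TC replicate 3 was highest and replicate 1 lowest for 26.7% of genes. In PC the libraries of the same number had the same order in all 5 genes, and the labels do not say that the numbers pair libraries across groups. In PC the spread was smaller, with a coefficient of variation of 11.7% for LRRC15 and 8.53% for CRYGS, against 46.9% and 47.5% in TC. The median over tested genes was 6.91% in PC and 8.77% in TC. TC replicate 3 was also the deepest library, and the part of depth in this spread was not tested.

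Genes silent in CC and present under drug were a small set. Of 25167 genes with at most 3 counts in every CC library, 101 had at least 10 counts in every TC library and 162 in every PC library, 179 in either and 84 in both. CXCL14 and CRYGS are among the 84, whereas LRRC15, with 8 reads in CC replicate 3, falls just outside. Of the 179, 110 (61.5%) had at most 3 counts again in every RC library, as CXCL14 did, while CRYGS had 9 reads in RC replicate 3.

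LRRC15 is a marker of activated, TGF-beta-responsive fibroblasts, and 19 of 26 genes of a TGF-beta and activated fibroblast list passed the filter. Against CC, 8 rose and 5 fell in TC, 10 rose and 5 fell in PC, and 1 rose and 4 fell in RC, where over all tested genes the shares that rose and fell were 33.2% and 34.7% (TC), 33.2% and 35.9% (PC) and 18.2% and 19.1% (RC). The median log2 fold change of the list was 0.73 in TC and 1.21 in PC, against -0.02 and -0.04 over all tested genes. TGFBI, a matrix protein induced by TGF-beta, rose from 9.86 ± 1.02 CPM in CC to 493 ± 248 in TC and 381 ± 78.7 in PC. INHBA, the activin A subunit, rose by 2.62 and 3.78 on the log2 scale in TC and PC (SE 0.21 and 0.22). FAP, a fibroblast surface protease, rose by 2.09 (SE 0.18) in TC but had 0.39 (SE 0.18, adjusted p = 0.0702) in PC, where LRRC15 was highest. TAGLN, an actin-binding protein of contractile cells, rose by 2.76 (SE 0.32) in PC. The genes of the list that fell, named after their values were seen, included ACTA2, smooth muscle actin, at -1.11 in TC and -1.63 in PC (SE 0.27 and 0.28), and SMAD3, which carries the TGF-beta signal, at -0.96 and -1.18 (SE 0.08 in both). CTHRC1, a secreted protein of activated fibroblasts, fell by 1.29 in TC and fell by 0.53 in PC (SE 0.12 in both), and SMAD7, an inhibitor of the pathway, fell by 1.00 and fell by 0.75 (SE 0.26 in both). TGFBR1, a receptor, fell by 0.28 in TC (SE 0.09), and COL12A1 fell by 0.74 in PC (SE 0.20). Further genes of the list that rose in both groups were also named after their values were seen. The receptor TGFBR2 rose by 2.08 in TC and 1.98 in PC (SE 0.13 in both). The ligands TGFB1 and TGFB3 rose by 1.99 and 1.26 in TC and by 1.79 and 2.12 in PC (SE 0.10 to 0.11). COL11A1 rose by 1.94 and 1.87 (SE 0.20 in both), and ITGA11 by 2.02 and 1.21 (SE 0.47 and 0.48). In RC the called genes with the largest changes were ACTA2 at -0.84 (SE 0.26), COL12A1 at -0.81 (SE 0.20) and FN1, fibronectin, at -0.62 (SE 0.22).

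Of 7 fibroblast markers, 4 to 5 were above the floor of 3 counts in each group. Their summed level was 48.5 to 61.7 CPM in CC, 79.0 to 104.9 in TC, 35.4 to 47.5 in PC and 43.7 to 47.5 in RC. On this sum PC, where LRRC15 was highest, overlapped with RC and lay below TC. Single markers differed from the sum. For PC against CC, the log2 difference was -2.05 for LUM (SE 0.13), 0.22 for PDGFRB (SE 0.21) and 0.39 for FAP (SE 0.18). COL1A1 had its highest mean in PC, as LRRC15 did, at 3.57 CPM. This was 2.70 above CC (SE 0.44) and 1.98 above TC (SE 0.42) on the log2 scale. The part of fibroblasts in the LRRC15 values was not tested. THY1 had 0 reads in every library, and DCN and COL1A2 had 1 to 4 reads summed over the 3 libraries in each of CC, TC and PC.

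Related chemokine genes other than CXCL16 were low, and those that passed the test in TC or PC were lower than in CC. Of the 22 other CXC ligands and receptors, 4 passed the filter on low counts. Against CC, 2 fell in TC and 3 fell in PC, and in RC 1 rose and 1 fell, where 34.7% of all tested genes were lower in TC, 35.9% were lower in PC and 37.3% passed in RC. CXCL8, a neutrophil attractant induced by MAPK signalling, was at least 8.49-fold lower in TC and at least 8.39-fold lower in PC. CXCL1 fell by 1.36 on the log2 scale in TC (SE 0.44, adjusted p = 0.0162) and was at least 7.59-fold lower in PC. CXCL16, a membrane-bound ligand at 12.2 CPM in CC, fell by 0.49 in PC (SE 0.14) and by 0.72 in RC (SE 0.14). CXCR4, the receptor of CXCL12, rose by 1.16 in RC (SE 0.39, adjusted p = 0.0357). CXCL12 itself did not pass the filter, with 0 reads in CC, 5 in TC, 21 in PC and 0 in RC, summed over the libraries of a group. CXCL9, also below the filter, went the other way, with 49, 4, 0 and 27 reads. Of 4 epithelial and keratinocyte markers, 1 or 2 were above the floor in each group, with a summed level of 0.106 to 0.384 CPM in CC, 0.261 to 0.726 in TC, 2.09 to 2.66 in PC and 0 to 0.197 in RC. Most of the PC level was KRT14, a basal keratin, at 2.29 ± 0.352 CPM. EPCAM went the other way, with 30 reads in CC, 11 in TC, 2 in PC and 7 in RC, summed over the libraries of a group. CDH1 had 5, 5, 6 and 0 reads, and KRT5 had 0, 0, 1 and 0. The part of these markers in the CXCL14 values was not tested.

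Of 28 lens genes 8 passed the filter, and against CC 4 rose and 3 fell in both TC and PC, while 2 rose and 2 fell in RC. The shares over all tested genes were 33.2% higher and 34.7% lower in TC, 33.2% higher and 35.9% lower in PC, and 18.2% higher and 19.1% lower in RC. SOX2, a transcription factor of lens induction and stem cells that was known to rise when the list was written, rose by 8.56 in TC, 9.10 in PC and 4.13 in RC on the log2 scale (SE 0.21, 0.21 and 0.25). CRYAB, a small heat shock protein found in many tissues, rose from 5.69 ± 1.10 CPM to 129 ± 36.8 in TC and 350 ± 19.9 in PC, and in RC fell to 3.48 ± 0.0697, below CC by 0.70 on the log2 scale (SE 0.21). MAF, a transcription factor of lens fibre genes, rose by 2.60 and 3.54 (SE 0.08 and 0.09), and GJA3, a lens connexin, by 1.21 and 1.74 (SE 0.11 in both). The 3 that fell are named after their values were seen. The lens filament genes BFSP1 and BFSP2 fell by 2.31 and 2.24 in TC (SE 0.15 and 0.59) and by 2.62 and 3.00 in PC (SE 0.15 and 0.63). The lens transcription factor PROX1 fell by 1.01 and 1.44 (SE 0.13 in both). CRYGC and CRYGD, gamma crystallins like CRYGS and 2 of 6 lens fibre markers, had 0 reads in every library. The summed level of those 6 markers was 0.790 to 1.97 CPM in CC, 0.233 to 0.560 in TC, 0.348 to 0.486 in PC and 0.548 to 1.01 in RC. Most of the sum in CC was BFSP2, at 1.16 CPM. Other markers of the 6 went the other way at few reads. MIP had 4 reads in CC, 20 in TC, 28 in PC and 14 in RC, summed over the libraries of a group, and CRYBB1 had 0, 3, 5 and 1.

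Among the genes around SHC2, the other SHC adaptors had different courses. SHC1, the widely expressed paralogue, was at 0.12 in TC against CC (SE 0.08, adjusted p = 0.206) and rose by 0.40 in PC (SE 0.08). SHC4, known in melanoma, rose by 1.64 and 1.91 in TC and PC (SE 0.11 in both) and was at -0.13 in RC (SE 0.11, adjusted p = 0.40). SHC3 stayed under 0.45 CPM in each group mean and passed no test against CC. Of 20 tested SHC adaptors, partners and receptors, 10 rose and 6 fell in TC, 9 rose and 6 fell in PC, and 4 rose and 7 fell in RC. Over all tested genes 67.9% passed the test in TC, 69.1% in PC and 37.3% in RC. NGFR, the low-affinity neurotrophin receptor of neural crest cells, rose from 4.53 ± 1.13 CPM to 4466 ± 827 in TC and 6310.0 ± 339 in PC, and was at 18.7 ± 3.31 in RC, above CC by 2.05 on the log2 scale (SE 0.19). NTRK2 rose by 4.02 in PC (SE 0.34) and RET by 2.90 in TC (SE 0.74). KDR, a VEGF receptor, was at least 91.6-fold lower in TC and at least 90.5-fold lower in PC, and fell by 1.57 in RC (SE 0.37). PDGFRB fell by 1.05 in RC (SE 0.21).

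**Figure D3:**
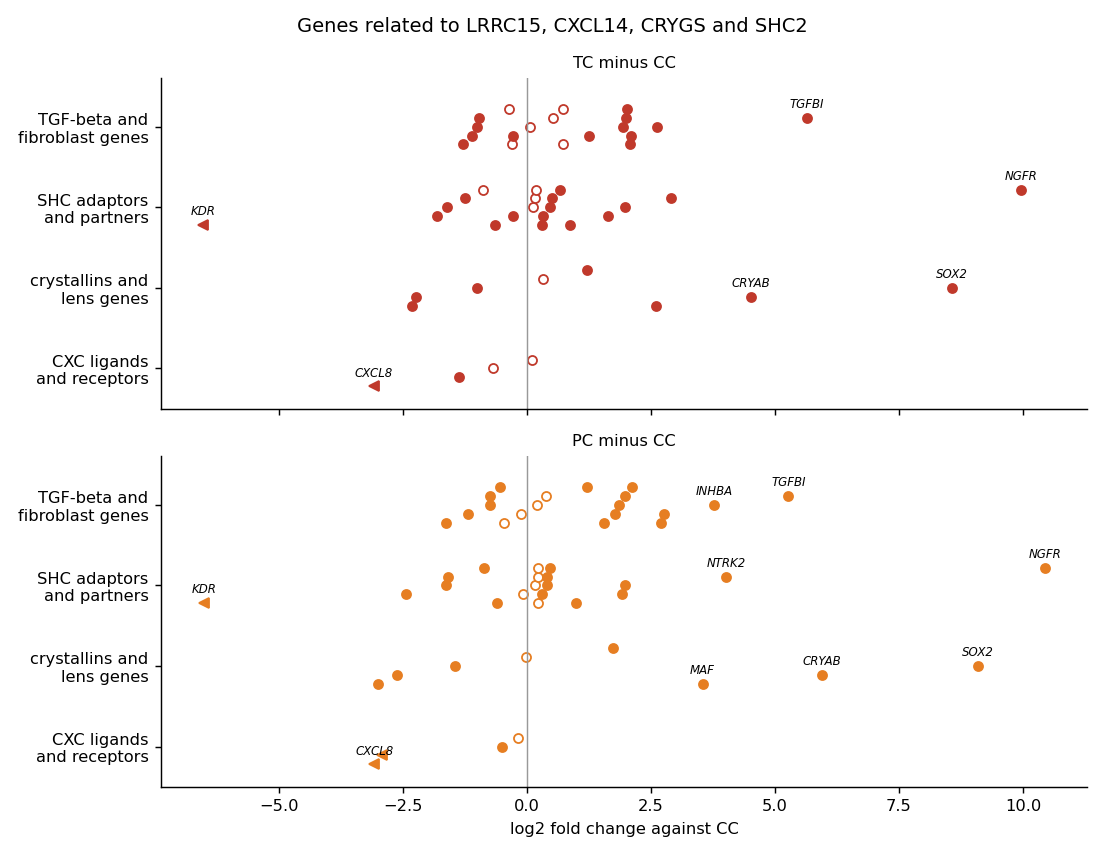
Log2 fold change against CC in TC (upper panel) and PC (lower panel) for each tested gene of the 4 lists related to LRRC15, CXCL14, CRYGS and SHC2. Filled points passed the test at an adjusted p under 0.05, open points did not, triangles are bounds where a group was at the floor, and genes beyond 3 on either side are named; each list holds genes on both sides of 0 except the CXC list in PC.

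The 2 nearest tested genes on each side of each of the 5 genes went both ways in TC and PC. Of these 20 neighbours, 8 rose and 9 fell in TC (33.2% and 34.7% of all tested genes) and 7 rose and 9 fell in PC (33.2% and 35.9%). In RC 6 rose and 1 fell (18.2% and 19.1% of all tested genes). TGFBI, 450 kb from CXCL14 between start sites, was also high in TC and PC, with a log2 fold change of 5.65 in TC and 5.27 in PC (SE 0.34 in both), and of 0.80 in RC (SE 0.30, adjusted p = 0.0579). ETV5, an ETS factor induced by ERK and 1 of the 2 nearest tested genes on the lower-coordinate side of CRYGS, went the other way, from 266 ± 36.0 CPM in CC to 8.35 ± 0.286 in TC and 5.69 ± 0.380 in PC, and was at 265 ± 15.01 in RC. TBCCD1 and DNAJB11, 26.2 and 26.3 kb on the other side of CRYGS, rose by 0.83 and 0.60 in PC (SE 0.07 and 0.10). Near CXCL14, MACROH2A1, 179.1 kb away between start sites, fell by 0.43 in TC and 0.83 in PC and rose by 0.45 in RC (SE 0.07 in each). C5orf66 rose by 1.23 in TC and 1.97 in PC (SE 0.26 and 0.25), and SMAD5 by 0.19 in TC (SE 0.08).

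Beside LRRC15, the Notch target HES1 fell by 1.30 in TC (SE 0.26) and 1.14 in PC (SE 0.25), and ATP13A3, a polyamine transporter, rose by 0.58 and 0.45 (SE 0.13 in both). Beside C15orf54, THBS1, the matrix protein thrombospondin 1 with its start 330.4 kb away, rose by 2.80 in TC and 3.69 in PC (SE 0.12 in both), and unlike C15orf54 it came down to 306 ± 25.9 CPM in RC from 2071 ± 197 CPM in PC. RASGRP1, an activator of RAS, fell by 4.03 and 4.11 (SE 0.34 in both). Beside SHC2, TPGS1, which acts in tubulin polyglutamylation and starts 46.5 kb away, rose by 1.22 in TC and 0.90 in PC and fell by 0.55 in RC (SE 0.10 in each), the same 3 directions as the SHC2 levels, with smaller changes. PLPP2 and MIER2, also beside SHC2, fell by 0.21 and 0.45 in TC and by 0.26 and 0.67 in PC (SE 0.07 and 0.09). ODF3L2 passed no test against CC.

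**Figure D4:**
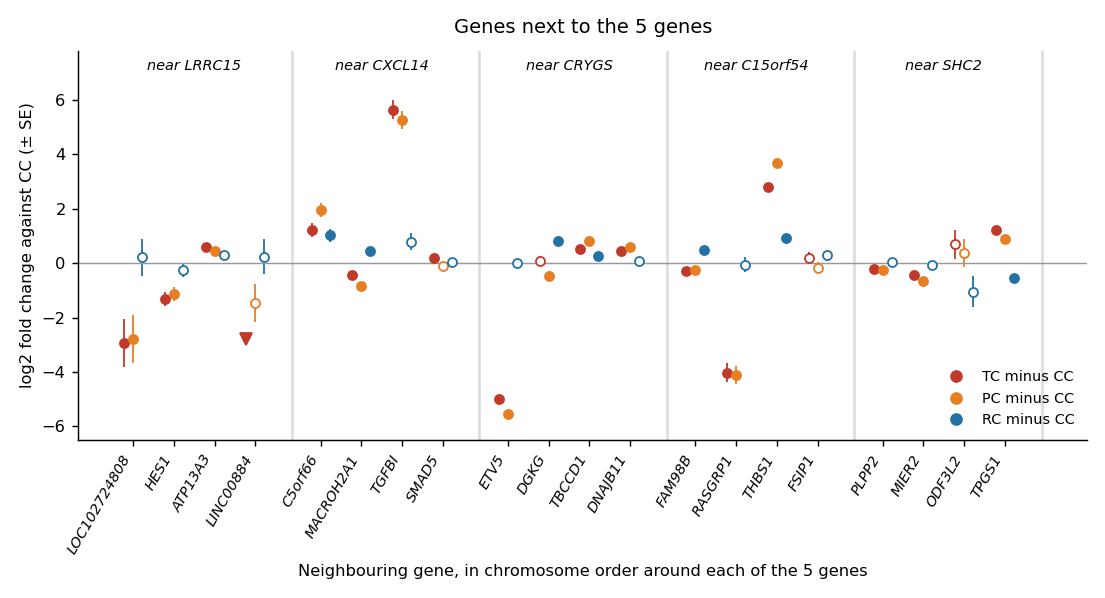
Log2 fold change against CC in TC, PC and RC of the 2 nearest tested genes on each side of each of the 5 genes, in chromosome order, with bars for the SE, filled points at an adjusted p under 0.05, open points above it and a triangle for a bound. TGFBI and THBS1 lie highest and ETV5 and RASGRP1 lowest, and in RC 13 of the 20 did not pass the test.

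For each gene, the 3 tested genes with the most similar course were found by Pearson's correlation of log2 CPM over the 12 libraries, which share their library and fall into 4 groups, so that r mainly compares group levels. For LRRC15 these were ITGA6, a laminin-binding integrin (r = 0.997), PPP2CB, a catalytic subunit of phosphatase 2A (r = 0.996), and S100A10, a partner of annexin A2 (r = 0.996). ITGA6 was at 412 CPM in CC, 1844 in TC, 2737 in PC and 717 in RC. For CXCL14 they were PCOLCE2, an enhancer of procollagen processing (r = 0.995), the RAS-related GTPase MRAS (r = 0.995) and the sialomucin PODXL (r = 0.994). PODXL went from 7.61 ± 1.71 CPM in CC to 90.0 ± 42.0 in TC and 79.9 ± 18.4 in PC, and was at 7.51 ± 1.17 in RC.

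For CRYGS the most similar genes were STMP1, a mitochondrial micropeptide (r = 0.998), the secreted guidance factor SEMA3C (r = 0.998) and DENND5A, a regulator of RAB proteins (r = 0.997). SEMA3C was at 19.6 ± 2.59 CPM in CC, 1113 ± 220 in TC, 1630.0 ± 162 in PC and 29.3 ± 0.549 in RC. For C15orf54 they were EIF6, a ribosome assembly factor (r = 0.976), the mitochondrial carrier SLC25A30 (r = 0.9746) and INIP, a subunit of a single-strand DNA binding complex (r = 0.965), whose levels were far less changed than those of C15orf54, at 22.7 CPM in CC and 36.4 CPM in RC for INIP. For SHC2 they were the F-box gene FBXL17 (r = 0.996) and the transcription factors MEIS3 (r = 0.996) and NPAS3 (r = 0.991). MEIS3 was at 29.0 ± 5.68 CPM in CC, 64.9 ± 5.50 in TC and 61.2 ± 4.13 in PC, and lay below CC in RC, at 10.8 ± 0.221. NPAS3 was likewise at 3.74 ± 0.162 CPM in CC and 1.09 ± 0.221 in RC.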

How the data were processed

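The deposited table holds raw read counts per gene for the 12 libraries. Per the labels, the authors used fastp 0.20.1, HISAT2 2.2.1, HTSeq 0.13.5 and the build GRCh38.p13, and strandedness was not given in the sources used here. The filter was a mean scaled count of 10 or more, passed by 15916 of 44659 genes. TMM factors (0.965 to 1.02) and 1 quasi-likelihood model of the 4 group means over the 12 libraries were used (edgeR 4.0.16, R 4.3.3; glmQLFTest, two-sided, Benjamini-Hochberg over all tested genes, called under 0.05, 8 residual degrees of freedom). Standard errors and 95% intervals come from the F statistic. The table lists 5088 numbered copies of genes, kept as listed. Where every library of a group had at most 3 counts, folds were computed against that floor in each library, which covers counting error only. Comparisons with CC share the CC libraries. No 2 libraries of a group were duplicates. The fit was tested on simulated counts.

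The 5 genes and the gene lists were chosen with earlier results of these data known. Genes named beyond the 5 were those of the same families and the 3 called genes with the largest change per list and comparison. Others came from the 2 nearest tested genes on each side and the 3 most similar per gene. Further genes of the TGF-beta and lens lists were named after their values were seen. KRT14 and the other cell type markers came from marker lists. DESeq2 1.42.0, other filters, library totals, a 1.5-fold test, a replicate block and leaving out each library were tried as alternatives.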

Additional observations from a re-analysis of the deposited data

How the results depend on the processing

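All 90 alternative values of RC minus PC for the 5 genes kept their direction, and 79 of 90 of PC minus TC kept their direction and side of the threshold. CXCL14 in PC minus TC ran from -1.90 to 0.12 when 1 library was left out, with the sign reversed without TC replicate 3 (0.12, edgeR adjusted p = 0.921). SHC2 in PC minus TC lost its call with library totals (-0.42), in the 1.5-fold test (-0.43) and in 8 of 12 fits that left out 1 library (-0.51 to -0.36). LRRC15, CRYGS and C15orf54 passed in all 18 alternatives. Of 216 list counts 195 stayed within 1.5 times the value given. When the filter was a summed count of 2 or more, the called CXC genes were 6 in PC and 1 in RC, and lens genes 11 in TC and 12 in PC. In the 1.5-fold test, called genes were 1 in TC and 0 in RC for the CXC list, 1 in RC for the lens list, 9 in TC, 9 in PC and 2 in RC for the SHC list, and 0 in RC for the TGF-beta list. Leaving out 1 library each, the CXC list had 1 to 2 called genes in TC (1 without CC replicate 2) and 1 to 2 in RC (1 without any 1 CC library, RC replicate 1 or RC replicate 2), and the TGF-beta list had 3 to 7 in RC (3 without CC replicate 1, RC replicate 2 or RC replicate 3). A minimum of 30 in place of 10 counts left 65 genes off in CC and on under drug. The 1.5-fold test called 5632, 5899, 616, 554 and 6165 genes in all for TC, PC and RC minus CC, PC minus TC and RC minus PC, against 10807, 11005, 5942, 3936 and 11114 without the fold threshold, a stricter hypothesis by construction. For the other changes the cause was not tested.

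Same-numbered libraries of different groups deviated together weakly (18 pairs, r from -0.0373 to 0.155, median 0.0108). For libraries of different number r ran from -0.121 to 0.0417 (36 pairs, median -0.00674). It was over 0.1 in 2 of the 18 pairs and in 0 of the 36. The main fit did not pair samples by number, since the labels do not state a pairing. With the replicate block, the CXC list had 1 called gene in RC, CXCL14 in PC minus TC was -0.73 (adjusted p = 0.295) and SHC2 -0.43 (adjusted p = 0.0311), and no call on the 5 genes changed.

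Depth limits LRRC15 in CC and CXCL14 and CRYGS in CC and RC, where 0 to 9 reads per library were counted. Of 120 alternative differences of the 5 genes from CC, 115 moved by less than the replicate spread, and the other 5, of LRRC15, CXCL14 and CRYGS, moved with a prior count of 0.5 in place of 2.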
